A study of Drosophila melanogaster with 16 samples.

Results

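The transcripts of 10 genes of the EGFR and JAK-STAT signalling pathways, both of which act in renewal of the fly midgut, were measured in midguts of Drosophila melanogaster. The genes were taken by name, as members of these pathways, and no cut on their values was applied: the EGFR ligands vn, spi and Krn, the receptor Egfr, the cytokines upd2 and upd3, the cytokine receptor dome, the kinase hop, the transcription factor Stat92E and the feedback inhibitor Socs36E. They are 10 of the 16680 genes in the count table, and all 10 were among the 9314 genes with enough reads to be tested. The study compared midguts with and without an RNAi construct against Myc, in each sex. Females and males labelled Myc RNAi carried mex1TS > MycRNAi GD1419, that is, the RNAi line GD1419 under the driver mex1-GAL4. Female and male controls were w1118; mex1-GAL4 TS/+, so all flies carried the driver. The driver mex1-GAL4 is active in enterocytes, the absorptive cells of the gut, while the RNA came from whole midguts. All flies are labelled virgin; no source used here gives their age or temperature. Each of the 4 groups had 4 libraries, numbered 1 to 4 in female controls, 5 to 8 in male controls, 9 to 12 in females labelled Myc RNAi and 13 to 16 in males labelled Myc RNAi, and each library was made from a pool of 30 midguts.

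In the adult midgut, stem cells divide to replace lost enterocytes. When enterocytes are damaged or lost, they and their neighbours are known to release the cytokines upd2 and upd3, which bind dome and act through the kinase hop on Stat92E, and Stat92E in turn raises Socs36E, which limits the pathway. The visceral muscle, progenitor cells and enterocytes supply vn, spi and Krn, and these ligands act through Egfr and the Ras and MAPK cascade on stem cell division.

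Libraries held 16630050 to 53586401 counts. Values are CPM, read counts scaled to library size with TMM factors. A gene was called at an edgeR quasi-likelihood p below 0.05 after Benjamini-Hochberg adjustment over the 9314 genes. The TMM factors were 0.691 to 1.01 in controls and 1.12 to 1.23 in libraries labelled Myc RNAi, and scaling to total counts alone moved the median log2 fold change of all genes to 0.43 in females and 0.52 in males. The transcript of the targeted gene, Myc (dm in the table), averaged 59.0 CPM in females labelled Myc RNAi and 89.1 CPM in female controls (log2 fold change −0.59 with SE 0.26 and edgeR adjusted p = 0.0892, n = 4 each). In males it averaged 39.9 CPM in libraries labelled Myc RNAi and 25.5 CPM in controls (0.65, SE 0.26, edgeR adjusted p = 0.0619). Leaving out 1 library brought the female difference below the threshold p (without control replicate 3, −0.74; without replicate 9, −0.81; without replicate 16, −0.59) and also the male difference (without replicate 1 or 9, 0.65; without male control replicate 8, 0.82; without replicate 13, 0.75), with edgeR adjusted p values of 0.0288 to 0.0486. Over all fits that left out 1 library, the log2 fold change ran from −0.81 to −0.38 in females and from 0.38 to 0.82 in males. The edgeR adjusted p values reached 0.305 and 0.248. The groups overlapped in both sexes. Replicate 16 had 60.2 CPM of Myc, against 30.6, 33.3 and 35.7 CPM in replicates 13, 14 and 15. The male difference runs against the label, so groups are named by their labels throughout, and directions rest on those labels. Other checks ran with the labels: w, carried as a marker by many fly transgenes, averaged 340 CPM in females labelled Myc RNAi and 14.4 CPM in female controls, and 460 CPM in males labelled Myc RNAi and 23.6 CPM in male controls, without overlap. roX1, an RNA of the male dosage compensation complex, averaged 1.13 CPM in females labelled Myc RNAi, 0.865 CPM in female controls, 719 CPM in males labelled Myc RNAi and 720 CPM in male controls. Replicate 16, a male library labelled Myc RNAi, stood apart with 922 CPM summed over testis germ-cell markers, against 1.70 to 2.50 CPM in the other 3 libraries of its group.

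In females labelled Myc RNAi, the ligands spi and Krn, the receptor Egfr, the cytokine upd3 and the inhibitor Socs36E were higher than in controls, and the kinase hop was lower. In males labelled Myc RNAi, vn, spi, upd3 and the receptor dome were higher and no member was lower. The cytokine upd3 differed by the largest factor of the 10 in each sex, 3.63-fold in females and 5.01-fold in males, while the ligand spi differed by 1.36-fold and 1.33-fold. In females 5 of the 10 were called higher and 1 lower, against a background of 18.5% of all tested genes higher and 17.6% lower (36.1% in all). In males 4 were called higher and 0 lower, against 21.7% and 17.7% (39.4% in all). In females 3 members had all 4 libraries labelled Myc RNAi above all controls and 1 below, against 19.5% and 17.8% of all tested genes (37.3% in all). In males the counts were 3 and 0, against 18.8% and 16.1% (34.9% in all). Of the 10, spi and upd3 were called higher in both sexes, as were 15.2% of all tested genes. The median log2 fold change of the 10 was 0.55 in females and 0.41 in males, beside −0.0002 and 0.05 over all tested genes. The count of 0 lower in males was also 0 at an unadjusted p below 0.05, with DESeq2 and with limma voom.

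**Figure D1:**
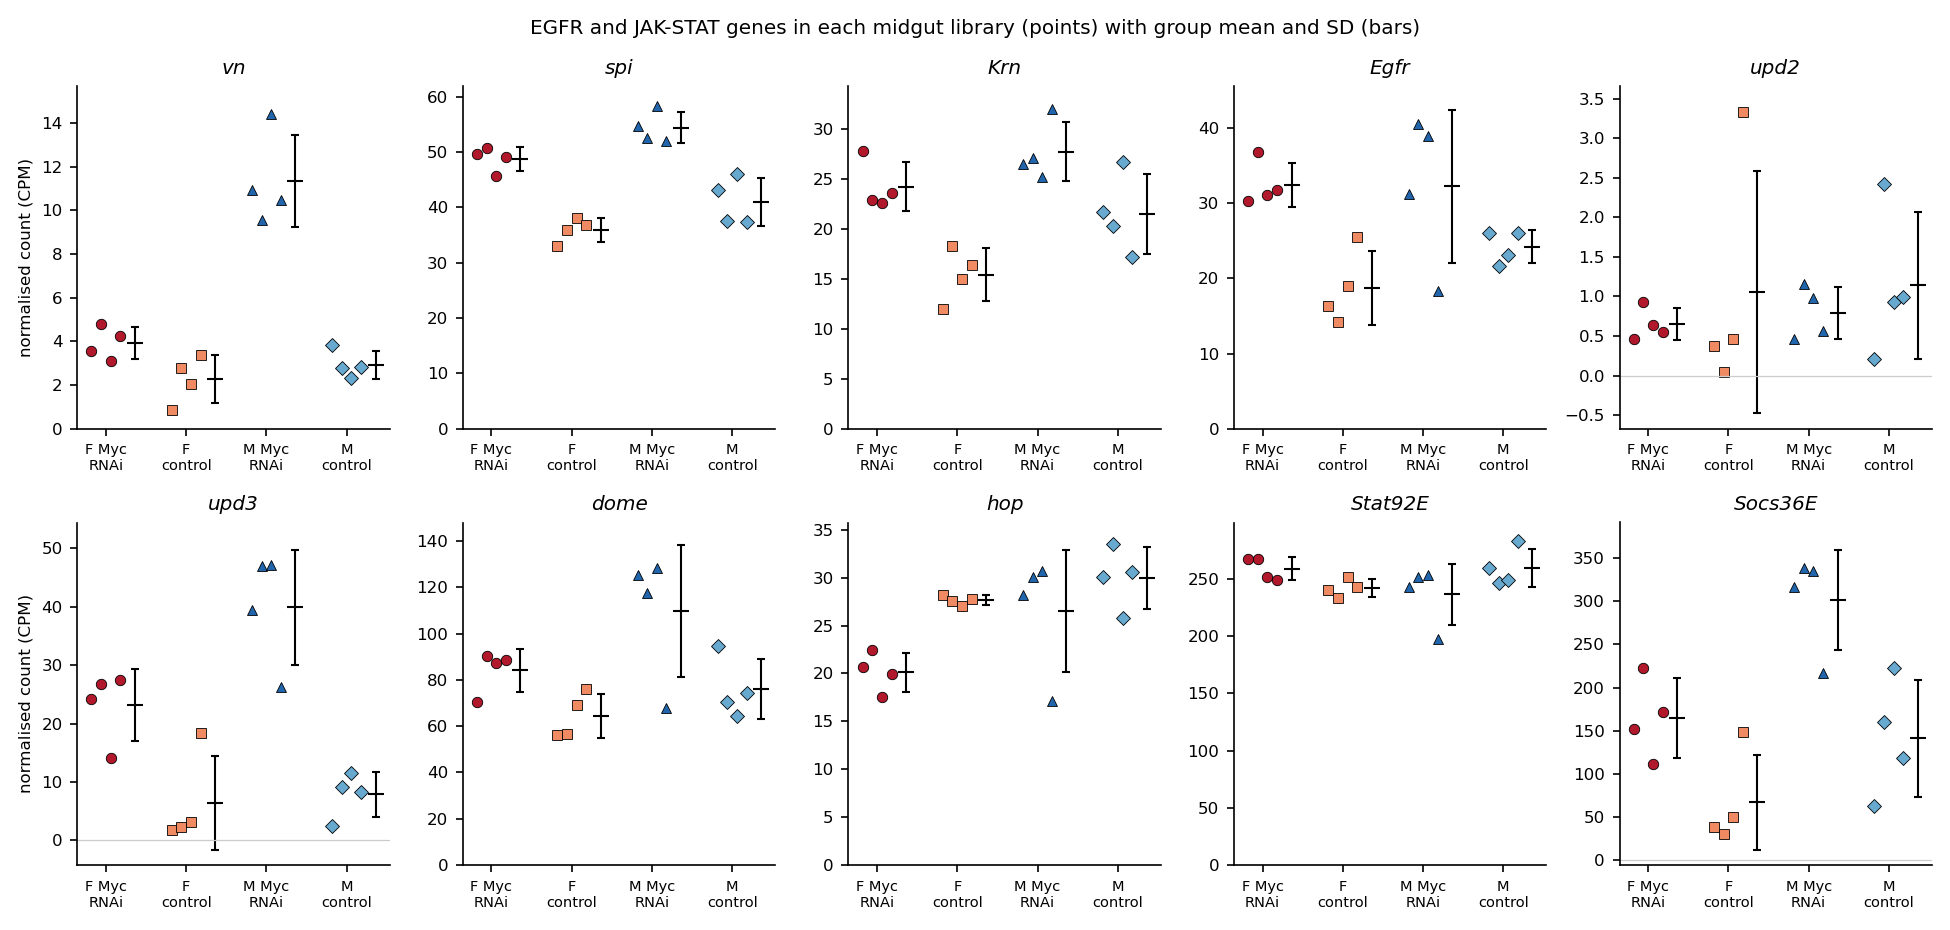
Normalised counts (CPM, 1 panel per gene, each with its own linear axis) of the 10 genes in the 16 libraries; points are libraries, bars are group means with SD (n = 4). Replicate 4 of the female controls sits above the other 3 for upd3 (18.5 against 1.86 to 3.07 CPM) and Socs36E (149 against 30.1 to 50.3 CPM), and replicate 16 of the males labelled Myc RNAi sits below its group for Egfr, dome, hop and Stat92E.

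The neuregulin-like EGFR ligand vn (chromosome 3L, 5813338 to 5845664, dm6) was expressed at a low level. In males it had 10.9, 9.56, 14.4 and 10.5 CPM in libraries labelled Myc RNAi, against 3.82, 2.78, 2.30 and 2.80 CPM in controls. The lowest male library labelled Myc RNAi lay above the highest male control, and the difference was called (log2 fold change 1.96 with SE 0.30 and edgeR adjusted p = 7.61e-05). In females it had 3.55, 4.77, 3.10 and 4.26 CPM in libraries labelled Myc RNAi, against 0.850, 2.78, 2.04 and 3.38 CPM in controls. These groups overlapped, since control replicate 4 exceeded the lowest library labelled Myc RNAi, and the difference missed the threshold (0.78, SE 0.31, edgeR adjusted p = 0.0557). It passed without control replicate 4 (0.98, edgeR adjusted p = 0.0249), with DESeq2 (adjusted p = 0.0292) and with limma voom (adjusted p = 0.0488).

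The TGF-alpha-like ligand spi (chromosome 2L, 19567900 to 19577315) showed a small and even difference. Females labelled Myc RNAi had 49.5, 50.6, 45.7 and 49.1 CPM and female controls 33.0, 35.9, 38.1 and 36.8 CPM. Males labelled Myc RNAi had 54.7, 52.6, 58.3 and 52.0 CPM and male controls 43.1, 37.4, 46.0 and 37.4 CPM. Within each sex the lowest library labelled Myc RNAi lay above the highest control. The log2 fold change was 0.44 in females (SE 0.09, edgeR adjusted p = 0.00157) and 0.41 in males (SE 0.09, edgeR adjusted p = 0.00235), and it was called without each library in turn.

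Krn (chromosome 3L, 17649562 to 17654280), the third ligand and a close relative of spi, shares an exon interval on the same strand with the gene Ndfip, so its reads are uncertain. Females labelled Myc RNAi had 27.8, 22.9, 22.6 and 23.6 CPM, all above the female controls at 11.96, 18.3, 14.99 and 16.3 CPM (log2 fold change 0.65 with SE 0.15 and edgeR adjusted p = 0.00233). Males labelled Myc RNAi had 26.5, 27.1, 25.2 and 31.9 CPM, and male controls 21.7, 20.3, 26.7 and 17.1 CPM. The male groups overlapped through control replicate 7, and the difference missed the threshold (0.37, SE 0.15, edgeR adjusted p = 0.0553). It passed without that library (0.49, edgeR adjusted p = 0.0140), without female control replicate 1 (0.37, edgeR adjusted p = 0.0403) and with limma voom (adjusted p = 0.0461).

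The receptor Egfr (chromosome 2R, 21522420 to 21559977) had 30.3, 36.8, 31.1 and 31.8 CPM in females labelled Myc RNAi, against 16.3, 14.2, 19.0 and 25.5 CPM in female controls. The groups did not overlap, and the log2 fold change was 0.79 (SE 0.21, edgeR adjusted p = 0.00743). In males it had 31.2, 40.6, 39.0 and 18.3 CPM in libraries labelled Myc RNAi, against 26.1, 21.7, 23.1 and 26.1 CPM in controls. Of the male libraries labelled Myc RNAi, 3 lay above every male control and replicate 16 lay below them all. The male difference was not called (0.41, SE 0.21, edgeR adjusted p = 0.138), and it was called without replicate 16 (0.61, edgeR adjusted p = 0.00742).

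**Figure D2:**
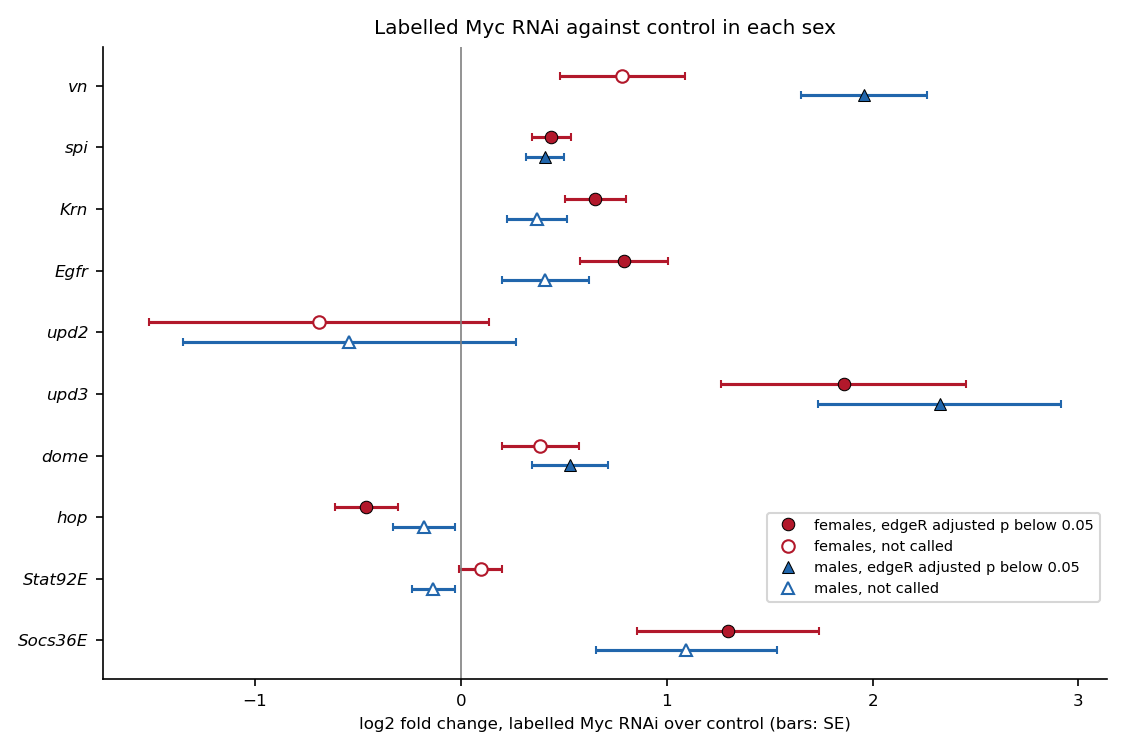
Log2 fold changes (x axis) of the 10 genes for libraries labelled Myc RNAi over controls, in females (circles) and males (triangles), with SE bars; filled symbols have an edgeR adjusted p below 0.05. The symbols of upd3 lie at 1.86 and 2.33, those of spi at 0.44 and 0.41, and only the symbols of upd2 and hop lie below 0 in both sexes.

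The JAK-STAT ligands differed from each other. upd3 (chromosome X, 18277233 to 18284596), a cytokine of the interleukin-6 type, had 24.2, 26.8, 14.1 and 27.5 CPM in females labelled Myc RNAi and 1.86, 2.23, 3.07 and 18.5 CPM in female controls. Control replicate 4 lay above 1 of the 4 libraries labelled Myc RNAi, while the other 3 controls lay below them all. The log2 fold change was 1.86 (SE 0.59, edgeR adjusted p = 0.0213). Without control replicate 4 it was 3.20 (edgeR adjusted p = 3.71e-05). Without control replicate 1, 2 or 3 the call ended, with log2 fold changes of 1.56, 1.54 and 1.62 and edgeR adjusted p values of 0.0610, 0.0678 and 0.0638.

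In males upd3 had 39.5, 46.9, 47.1 and 26.2 CPM in libraries labelled Myc RNAi and 2.50, 9.18, 11.5 and 8.33 CPM in controls. All 4 libraries labelled Myc RNAi exceeded every control. The log2 fold change was 2.33 (SE 0.59, edgeR adjusted p = 0.00476), and it remained called without each library in turn (1.99 to 2.56).

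upd2 (chromosome X, 18240654 to 18243284), a cytokine of the same family, was near the limit of detection, with 1 to 69 reads per library. It had 0.469, 0.934, 0.642 and 0.553 CPM in females labelled Myc RNAi and 0.372, 0.0456, 0.457 and 3.33 CPM in female controls, where replicate 4 was again the highest. In males it had 0.468, 1.16, 0.983 and 0.563 CPM in libraries labelled Myc RNAi and 0.204, 2.43, 0.935 and 0.995 CPM in controls. The groups overlapped in both sexes, and no difference was detectable at this depth (females −0.69, SE 0.83, edgeR adjusted p = 0.572; males −0.54, SE 0.81, edgeR adjusted p = 0.637). The sign turned without female control replicate 4 (1.08, edgeR adjusted p = 0.276) and without male control replicate 6 (0.11, edgeR adjusted p = 0.938). The genes upd1, upd2 and upd3 lie within 68638 bp of chromosome X. upd1, listed as os, had too few reads to be tested, with 26 reads over the 4 female libraries labelled Myc RNAi and 0 over the female controls. That is a level at least 5.08-fold higher when the controls are set to 3 counts over the group. The bound covers females only, and none was available for males. It does not set upd1 apart, since low-count genes of unrelated lists had such bounds in females too. The testis germ-cell marker djl had 38 and 0 reads (at least 7.43-fold) and the fat body marker Fbp1 14 and 0 reads (at least 2.74-fold).

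The receptor dome (chromosome X, 19676061 to 19683518) had 126, 118, 128 and 67.8 CPM in males labelled Myc RNAi and 94.8, 70.6, 64.6 and 74.3 CPM in male controls. Replicates 13, 14 and 15 lay above all male controls and replicate 16 lay among them. The difference was called (log2 fold change 0.53 with SE 0.19 and edgeR adjusted p = 0.0323). The call ended without female control replicate 2 (0.47), without male control replicate 6, 7 or 8 (0.49, 0.46 and 0.52) and without replicate 13, 14 or 15 of the males labelled Myc RNAi (0.46, 0.49 and 0.45), with edgeR adjusted p values up to 0.0994. It also ended without a filter on low counts (0.52, edgeR adjusted p = 0.0556) and when the 8 male libraries were fitted alone (0.52, edgeR adjusted p = 0.0852). Without replicate 16 it was 0.70 (edgeR adjusted p = 0.00122). Females labelled Myc RNAi had 70.5, 90.5, 87.2 and 88.6 CPM and female controls 56.3, 56.5, 69.1 and 75.9 CPM. These groups overlapped, and the difference missed the threshold (0.39, SE 0.19, edgeR adjusted p = 0.123; 0.0358 without replicate 16 of the males labelled Myc RNAi).

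The Janus kinase gene hop (chromosome X, 11360930 to 11368098) was the member called lower. Females labelled Myc RNAi had 20.7, 22.4, 17.5 and 19.9 CPM, all below the female controls at 28.2, 27.6, 27.1 and 27.8 CPM. The log2 fold change was −0.46 (SE 0.15, edgeR adjusted p = 0.0254). This call depended on the scaling: with total counts alone it was −0.03 (edgeR adjusted p = 0.911), and it also ended without control replicate 1 (−0.45) and without replicate 11 or 12 of the females labelled Myc RNAi (−0.40 and −0.46), with edgeR adjusted p values up to 0.0809, and without a filter on low counts (−0.45, edgeR adjusted p = 0.0538). Males labelled Myc RNAi had 28.2, 30.1, 30.6 and 17.2 CPM and male controls 30.1, 33.6, 25.7 and 30.6 CPM. The male groups overlapped and the difference was not called (−0.18, SE 0.15, edgeR adjusted p = 0.379; 0.30 with total counts).

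Stat92E (chromosome 3R, 20535323 to 20552311), the transcription factor of the pathway, had nearly even levels. It ranged over 268, 268, 252 and 249 CPM in females labelled Myc RNAi and 240, 234, 252 and 243 CPM in female controls. In males it had 243, 252, 253 and 198 CPM in libraries labelled Myc RNAi and 259, 247, 249 and 284 CPM in controls. The groups overlapped in each sex, and the log2 fold changes were 0.10 in females (SE 0.10, edgeR adjusted p = 0.526) and −0.13 in males (SE 0.10, edgeR adjusted p = 0.337). With total counts they were 0.52 (edgeR adjusted p = 0.0125) and 0.34 (edgeR adjusted p = 0.0746), beside the medians of 0.43 and 0.52 that all genes had under that scaling.

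Socs36E (chromosome 2L, 18138675 to 18152417), a target and inhibitor of the pathway, had 152, 223, 112 and 172 CPM in females labelled Myc RNAi and 38.4, 30.1, 50.3 and 149 CPM in female controls. Control replicate 4 lay above the lowest library labelled Myc RNAi, and the other 3 controls lay below all 4. The log2 fold change was 1.30 (SE 0.44, edgeR adjusted p = 0.0297), and 1.999 without control replicate 4 (edgeR adjusted p = 0.000436). The call ended without control replicate 1, 2 or 3 (1.11, 1.02 and 1.18) and without replicate 10 or 12 of the females labelled Myc RNAi (1.12 and 1.28), with edgeR adjusted p values up to 0.0953. It also ended without a filter on low counts (1.31, edgeR adjusted p = 0.0555).

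In males Socs36E had 316, 338, 335 and 216 CPM in libraries labelled Myc RNAi and 63.2, 160, 222 and 118 CPM in controls. Replicate 16 and control replicate 7 overlapped, and the difference missed the threshold (log2 fold change 1.10 with SE 0.44 and edgeR adjusted p = 0.0581). It passed without replicate 16 (1.23, edgeR adjusted p = 0.0475), without male control replicate 7 (1.40, edgeR adjusted p = 0.0294), without female control replicate 4 (1.08, edgeR adjusted p = 0.0119), with limma voom (1.24, adjusted p = 0.0376) and with total counts (1.54, edgeR adjusted p = 0.0165).

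**Figure D3:**
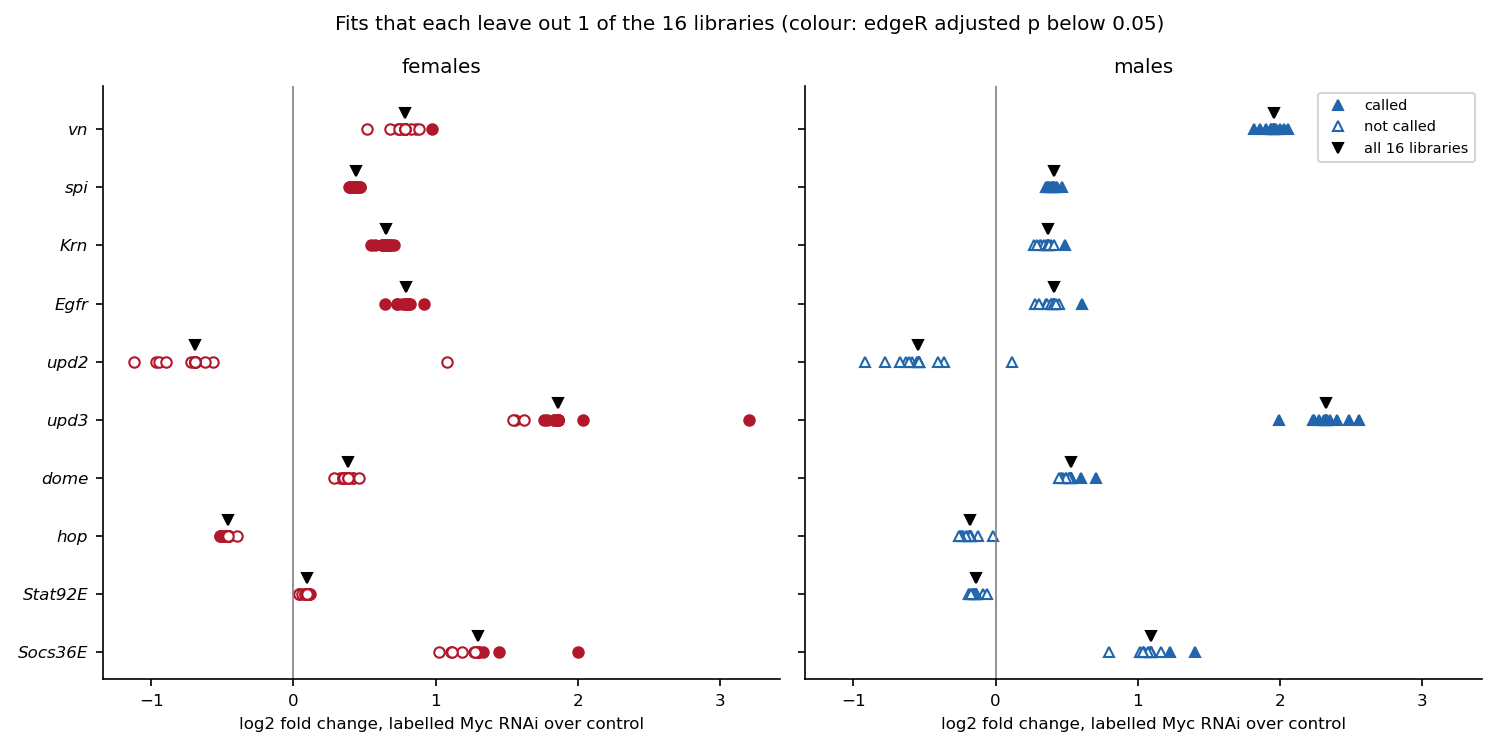
Log2 fold change of each of the 10 genes in females and males after leaving out each of the 16 libraries in turn (filled where the edgeR adjusted p is below 0.05) and with all libraries (black triangles). For upd3 and Socs36E in females the point without control replicate 4 lies apart, at 3.20 and 1.999, against 1.86 and 1.30 with all libraries.

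The cytokine and the inhibitor were highest in the same libraries. In the plot of Socs36E against upd3, replicates 13, 14 and 15 of the males labelled Myc RNAi held the 3 highest values of both genes. Female control replicates 1, 2 and 3 held the lowest values of Socs36E together with male control replicate 5, and these same 4 libraries had the lowest upd3. Female control replicate 4 lay within the range of the females labelled Myc RNAi on both axes. For Socs36E it also lay within the range of the male controls, 63.2 to 222 CPM. No correlation is given, because the libraries come from groups of different sex and genotype.

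**Figure D4:**
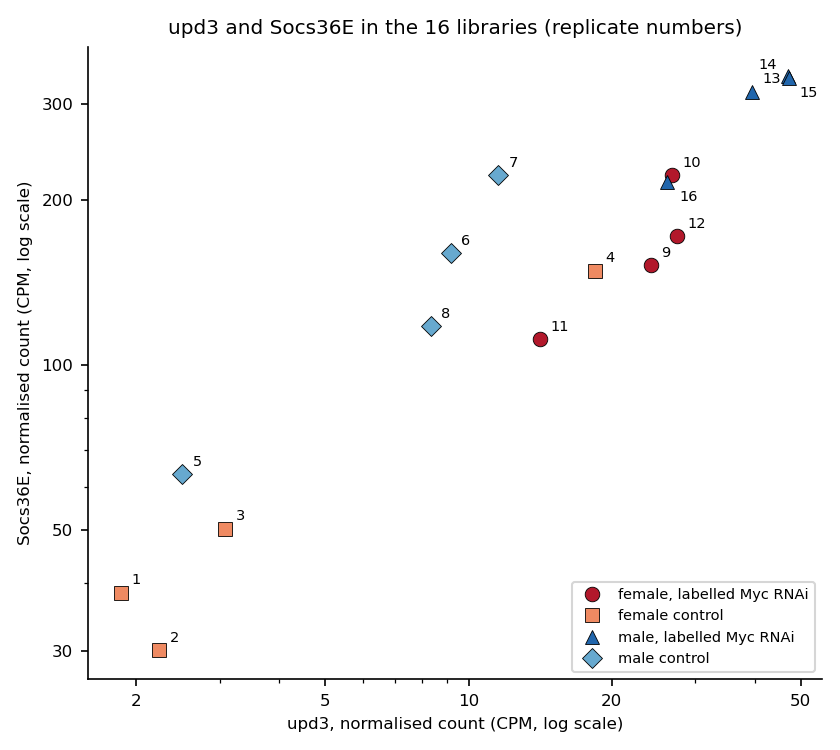
Socs36E against upd3 in the 16 libraries, both as normalised counts (CPM) on log axes; symbols mark the group and numbers the replicate. Male control replicate 5 lies near female control replicates 1 to 3, and female control replicate 4 lies between replicates 9 and 11 of the females labelled Myc RNAi.

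The sexes were then compared within each genotype. In controls all 10 members had a lower mean fit in females than in males, and 0 of the 10 were called in either direction, against 10.3% of all tested genes (5.02% higher and 5.27% lower). For 0 of the 10 did the female and male controls separate without overlap, against 14.3% (7.24% with females higher and 7.06% lower). At an unadjusted p below 0.05, 2 were lower, Krn (log2 fold change −0.48 with SE 0.15 and edgeR adjusted p = 0.0508) and Socs36E (−1.08, SE 0.44, edgeR adjusted p = 0.139), and DESeq2 called 1, Krn (adjusted p = 0.0226), and limma voom 0. Krn was also called by edgeR without female control replicate 2 (−0.59, adjusted p = 0.0351), male control replicate 8 (−0.57, adjusted p = 0.0301) or replicate 16 (−0.48, adjusted p = 0.0364). Without female control replicate 4, Socs36E (−1.78, edgeR adjusted p = 0.00600) and upd3 (−1.68, edgeR adjusted p = 0.0185) were called lower in female controls, while with all libraries upd3 was at −0.32 (SE 0.59, edgeR adjusted p = 0.792). The median of the 10 was −0.28, beside −0.01 over all tested genes.

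In libraries labelled Myc RNAi, the ligand vn was lower in females than in males (log2 fold change −1.54 with SE 0.30 and edgeR adjusted p = 0.00665). The highest female library had 4.77 CPM and the lowest male library 9.56 CPM, and the call held without each library in turn (−1.64 to −1.40). It was the 1 member of 10 called, against 5.56% of all tested genes (2.85% higher and 2.72% lower). The female libraries of spi also lay below all male libraries, which makes 2 members without overlap, against 13.5% of all tested genes (7.1% with females higher and 6.39% lower), but spi was not called (−0.16, edgeR adjusted p = 0.404). Without replicate 16, hop (−0.56, edgeR adjusted p = 0.00569) and dome (−0.56, edgeR adjusted p = 0.0372) were called lower in females as well, against −0.40 and −0.38 with all libraries. The median of the 10 was −0.34, beside −0.009 over all tested genes.

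Whether the difference by genotype itself differed between the sexes was tested as an interaction, and 0 of the 10 members were called, as against 1.07% of all tested genes (0.87% higher and 0.204% lower). DESeq2 and limma voom called 0 as well. At an unadjusted p below 0.05 there was 1, vn, whose female log2 fold change was smaller by 1.17 (interaction −1.17, SE 0.43, edgeR adjusted p = 0.254). The genotype and sex comparisons share libraries, so their values for a gene are not independent.

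The order of the 4 groups varied among the members. Males labelled Myc RNAi had the highest mean for vn, spi, Krn, upd3, dome and Socs36E, followed by females labelled Myc RNAi, male controls and female controls in the same order for all 6. Between neighbours in that order the libraries separated in 3 places: males from females labelled Myc RNAi for vn and for spi, and females labelled Myc RNAi from male controls for upd3. All other neighbours overlapped. Male controls were highest for hop, upd2 and Stat92E, with overlap between all neighbouring groups. For Egfr the means of females labelled Myc RNAi (32.5 ± 2.93 CPM, SD, n = 4) and males labelled Myc RNAi (32.3 ± 10.2 CPM) lay above those of male controls (24.2 ± 2.23 CPM) and female controls (18.8 ± 4.94 CPM). All neighbouring groups of Egfr overlapped too.

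Per kb of exon, Socs36E and Stat92E had the highest levels of the 10, at 48.1 and 47.9 CPM per kb averaged over the 4 groups, and Socs36E exceeded Stat92E in 7 of 16 libraries. Their order depended on the length used, since per kb of the longest transcript Stat92E had 59.4 and Socs36E 48.1 CPM per kb. Group means of Socs36E ran from 19.1 CPM per kb in female controls to 86.0 CPM per kb in males labelled Myc RNAi. Per kb of exon, these genes were followed by spi (24.8 CPM per kb), dome (17.2), Krn (16.4), upd3 (8.71), hop (5.16), Egfr (3.88), vn (0.976) and upd2 (0.459). On this scale Stat92E stayed within 37.9 to 54.5 CPM per kb over all libraries, whereas Socs36E spanned 8.60 to 96.5 and upd3 0.838 to 21.2 CPM per kb.

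Other genes of the 2 pathways were taken from lists by role. A list of 7 genes held proteases and other genes of ligand supply and also the antagonist aos, and 6 of them were tested. Of these, 4 rose in females and 5, with aos, in males, against 18.5% and 21.7% of all tested genes. Their median log2 fold changes were 1.06 and 1.26. rho, the rhomboid protease that cleaves spi, had 13.4, 13.2, 8.81 and 12.3 CPM in females labelled Myc RNAi, against 1.06, 1.5, 1.5 and 4.16 CPM in female controls. In males rho had 19.9, 22.6, 21.5 and 17.9 CPM in libraries labelled Myc RNAi, against 1.63, 5.14, 6.24 and 4.87 CPM in controls. The groups did not overlap in either sex (females 2.54, SE 0.39, edgeR adjusted p = 9.16e-05; males 2.18, SE 0.37, edgeR adjusted p = 0.000165). rho-4, of the same protease family, rose by 1.32 in females and 1.34 in males on the log2 scale, and S (Star), which carries spi through the secretory pathway, by 0.81 and 1.18. The protease gene ru had 25 reads over the females labelled Myc RNAi and 0 over the female controls. That is at least 4.89-fold higher when the controls are set to 3 counts over the group. In males it had 55 and 10 reads (2.25, edgeR adjusted p = 0.00397). The highest control library of ru had 0.153 CPM, and ru passed the filter only through libraries labelled Myc RNAi. Its calls, counted in both sexes, are therefore tied to the filter. The remaining gene called in males was aos, a secreted antagonist of Egfr (0.92, SE 0.32, edgeR adjusted p = 0.0311). Its call ended without male control replicate 5 (0.70), 6 (0.95) or 8 (0.94) and without replicate 13 (0.92), 14 (0.88) or 15 (0.75), with edgeR adjusted p values up to 0.11.

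Among 15 genes of the cascade downstream of Egfr, 6 rose in females and 5 in males, with medians of 0.17 and 0.16. Of all tested genes 18.5% and 21.7% were called higher. Ras85D, the Ras GTPase, had a mean of 121 ± 9.81 CPM in females labelled Myc RNAi and 53.7 ± 9.54 CPM in female controls (SD, n = 4 each; log2 fold change 1.17), and 1.21 was the log2 fold change in males. The adaptor gene Shc (1.29 in females, 1.35 in males) and vap, a GTPase-activating protein for Ras (1.02 and 1.24), moved in the same direction. The adaptor gene drk had 0.42 in females (edgeR adjusted p = 0.0254) and 0.56 in males (edgeR adjusted p = 0.00397). The female call of drk ended without control replicate 2 (0.38), 3 (0.40) or 4 (0.37) and without replicate 9 (0.42) or 11 (0.39) of the females labelled Myc RNAi, with edgeR adjusted p values up to 0.0827.

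Of 9 target and feedback genes of EGFR signalling, 3 rose in females (median 0.49), and in males 2 rose and 2 fell (median 0.04). The male counts are close to the shares of all tested genes, 21.7% higher and 17.7% lower, and the female share of all genes was 18.5% higher. edl, a regulator of the ETS factors pnt and aop, rose by 1.58 in females (SE 0.38, edgeR adjusted p = 0.00349) and 1.37 in males (edgeR adjusted p = 0.00729) on the log2 scale, and Spred, an inhibitor of Ras signalling, by 0.49 and 0.69. The ETS activator pnt was called in females (0.53, edgeR adjusted p = 0.0476), a call that ended without any 1 of 11 of the libraries (0.37 to 0.53, edgeR adjusted p values up to 0.194). Sprouty (sty), a feedback inhibitor, had 40.4, 67.8, 50.6 and 53.4 CPM in males labelled Myc RNAi and 30.2, 159, 140 and 143 CPM in male controls. The groups overlapped, since control replicate 5 was the lowest of the 8, and the log2 fold change was −1.15 (SE 0.35, edgeR adjusted p = 0.0144; −0.98 and 0.0516 without control replicate 6). The transcriptional repressor cic was lower in males by −0.55 (edgeR adjusted p = 0.0145; −0.47 and 0.0522 without control replicate 8). Both male falls were lost with total counts (sty −0.72, edgeR adjusted p = 0.136, and cic −0.09, edgeR adjusted p = 0.758). That of sty was also lost with limma voom (−0.90, adjusted p = 0.0760) and in the fit to the male libraries alone (−1.16, edgeR adjusted p = 0.0518).

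**Figure D5:**
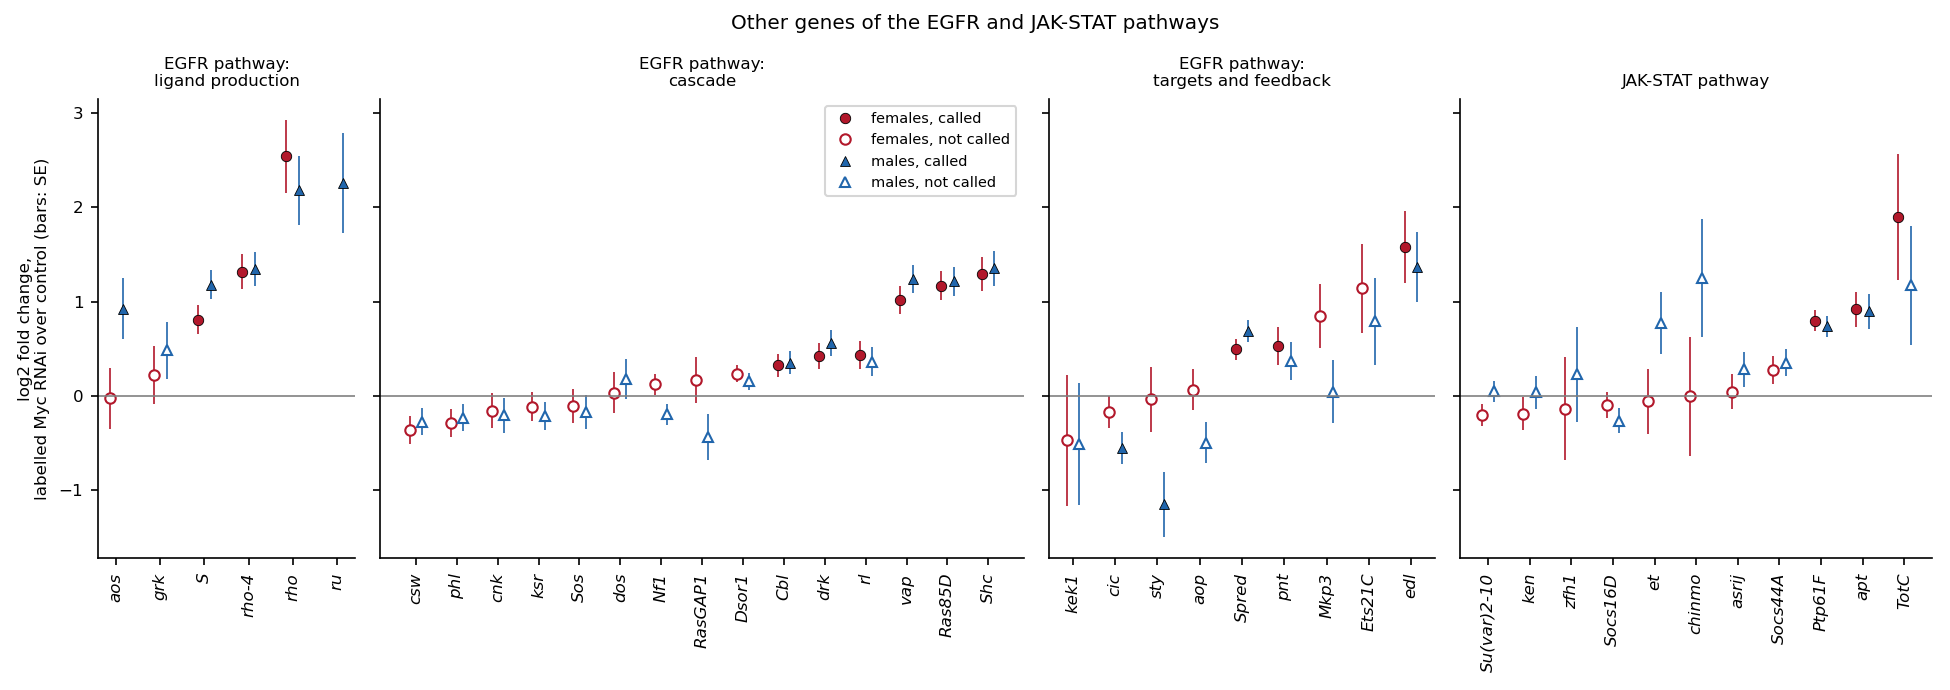
Log2 fold changes with SE of the other tested EGFR and JAK-STAT pathway genes, for libraries labelled Myc RNAi over controls in females (circles) and males (triangles); filled symbols have an edgeR adjusted p below 0.05. rho, rho-4, S, Ras85D, Shc, vap, edl and Ptp61F lie above 0 in both sexes, and ru in females is not drawn because the female controls had 0 reads.

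Over the 30 EGFR pathway genes tested beside the members (of 31 listed), 13 rose in females, and 12 rose and 2 fell in males, with medians of 0.28 and 0.36. The 13 and the 12 include ru, which passed the filter only through libraries labelled Myc RNAi. Of all tested genes 18.5% were higher in females, and 21.7% higher and 17.7% lower in males. Between female and male controls 4 of the 30 were called, all lower in females, against 5.27% of all tested genes. Mkp3, a phosphatase of the MAP kinase, had a log2 fold change of −1.57 there (SE 0.35, edgeR adjusted p = 0.00932), and the others were sty (−1.43, edgeR adjusted p = 0.0170), the repressor aop (−0.82, edgeR adjusted p = 0.0255) and ru, with 0 reads in female and 10 in male controls. For Mkp3, sty and aop the female and male controls overlapped. Summed over the target and feedback genes, male control replicate 5 had 349 CPM, against 658, 663 and 631 CPM in male control replicates 6, 7 and 8. The calls of sty ended without female control replicate 1 (−1.37) or 2 (−1.34) or male control replicate 6 (−1.25), those of aop without female control replicate 1 (−0.75), 2 (−0.74) or 4 (−0.78) or male control replicate 6 (−0.69) or 8 (−0.74), and that of ru without female control replicate 1, 2 or 3, with edgeR adjusted p values up to 0.0903. Between females and males labelled Myc RNAi, S (−0.58, edgeR adjusted p = 0.0336) and vap (−0.59, edgeR adjusted p = 0.0283) were lower in females, 2 of the 30 against 2.72% of all tested genes. The call of S ended without replicate 9 (−0.59), 10 (−0.62), 11 (−0.51), 12 (−0.61), 13 (−0.50) or 15 (−0.49), and that of vap without replicate 9 (−0.53), 11 (−0.61), 12 (−0.57), 13 (−0.54) or 15 (−0.51), with edgeR adjusted p values up to 0.118.

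Of 14 further JAK-STAT genes 11 were tested, and 3 rose in females and 2 in males. Of all tested genes 18.5% and 21.7% were called higher, so both counts are near the background. The medians of the 11 were −0.006 and 0.35, and the male median was 0.13 without replicate 16. Ptp61F, a phosphatase that restrains hop and Stat92E, averaged 91.1 ± 9.99 CPM in females labelled Myc RNAi and 52.4 ± 3.37 CPM in female controls (log2 fold change 0.80 with SE 0.11 and edgeR adjusted p = 4.63e-05). In males it averaged 84.3 ± 10.3 CPM in libraries labelled Myc RNAi and 50.5 ± 1.35 CPM in controls (0.74, edgeR adjusted p = 6.48e-05). apt, known as a modulator of STAT signalling in the fly ovary, rose by 0.92 in females (edgeR adjusted p = 0.00110) and 0.89 in males (edgeR adjusted p = 0.00112). TotC, a stress-induced Turandot gene, averaged 0.455 CPM in females labelled Myc RNAi and 0.121 CPM in female controls (1.90, edgeR adjusted p = 0.0345). Its call ended without control replicate 2 (1.93), 3 (1.75) or 4 (1.62) and without replicate 9 (1.70) or 11 (1.83) of the females labelled Myc RNAi, with edgeR adjusted p values up to 0.100. It also ended without a filter on low counts (1.89, edgeR adjusted p = 0.105). TotC was tested in 6 of the alternative settings, while each member was tested in 8.

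For each member, the gene outside the 10 with the most similar profile was found as the smallest root mean square difference of centred log2 CPM over the 16 libraries, among 4863 tested and named genes. For upd3 it was rho (difference 0.36, beside an SD of 1.59 of upd3 itself), and for Socs36E it was Ets21C, an ETS transcription factor (0.22, SD 1.10). Ets21C averaged 34.1 ± 12.2 CPM in females labelled Myc RNAi and 15.5 ± 12.9 CPM in female controls, and 52.6 ± 15.2 CPM in males labelled Myc RNAi and 30.4 ± 14.99 CPM in male controls (SD, n = 4 each). It was not called in females (1.14, edgeR adjusted p = 0.0729) or males (0.79, edgeR adjusted p = 0.198). For vn the gene was PGRP-SA, a peptidoglycan recognition protein (0.34, SD 1.03), for Egfr the laminin gene LanB1 (0.13, SD 0.45), for Krn Vamp7 (0.11, SD 0.38) and for spi kra (0.11, SD 0.25). The other matches were Crag for dome (0.12, SD 0.37), DIP1 for hop (0.12, SD 0.30), Cul4 for Stat92E (0.089, SD 0.11) and kek1 for upd2 (0.75, SD 1.16). The difference between Cul4 and Stat92E is close to the SD of Stat92E itself.

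Markers of the cell types of the midgut and its surroundings were summed over each list. The 12 markers of intestinal stem cells and enteroblasts summed to 256 to 346 CPM in females labelled Myc RNAi and 98.3 to 198 CPM in female controls, and to 319 to 435 CPM in males labelled Myc RNAi and 132 to 184 CPM in male controls. All 12 rose in females and 9 of 12 in males, against 18.5% and 21.7% of all tested genes. The highest female control sum, 198 CPM, was that of replicate 4. The 9 enterocyte markers summed to 11435 to 14245 CPM in females labelled Myc RNAi and 21143 to 52128 CPM in female controls. In males the sums were 11874 to 15940 CPM in libraries labelled Myc RNAi and 21193 to 35841 CPM in controls. Of the 9, 4 rose and 2 fell in each sex, against 18.5% and 17.6% of all tested genes in females and 21.7% and 17.7% in males. Their median log2 fold change was 0.35 in females and 0.17 in males. The sums weigh abundant markers most, so their fall does not stand for most of the 9.

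The 15 visceral muscle markers summed to 2517 to 3227 CPM in females labelled Myc RNAi and 2509 to 2823 CPM in female controls, which overlap, and to 3266 to 3626 CPM in males labelled Myc RNAi and 2811 to 2959 CPM in male controls, which do not. Of the 14 tested, 1 rose in females and 2 in males, a smaller share than the 18.5% and 21.7% of all tested genes. The 8 hemocyte markers summed to 147 to 198 CPM in females labelled Myc RNAi and 148 to 192 CPM in female controls, and to 126 to 166 CPM in males labelled Myc RNAi and 228 to 290 CPM in male controls, without overlap in males, where 2 of 7 tested fell. The 10 enteroendocrine markers summed to 340 to 412 CPM in females labelled Myc RNAi and 424 to 523 CPM in female controls, without overlap. In males the sums, 407 to 671 CPM in libraries labelled Myc RNAi and 554 to 799 CPM in controls, overlapped, and 1 of 10 fell in each sex. The 6 Malpighian tubule markers summed to 163 to 249 CPM in females labelled Myc RNAi and 103 to 139 CPM in female controls, without overlap. Their male sums, 86.6 to 171 CPM in libraries labelled Myc RNAi and 91.9 to 189 CPM in controls, overlapped. Of these 6, 0 were called in either sex. Of 5 tracheal markers 1 rose in females, and 1 rose and 2 fell in males, and 1 of 7 tested fat body markers fell in each sex. Beside these marker counts, 18.5% of all tested genes rose and 17.6% fell in females, and 21.7% and 17.7% in males. The falls of enteroendocrine and fat body markers do not exceed these shares. The part of these cell types in the values of the 10 genes was not tested, and in whole midguts a change in the number of cells of a type and a change in RNA per cell cannot be told apart.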

How the data were processed

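Polyadenylated RNA of pooled midguts was made into libraries with a directional kit, per the labels' protocols. The deposited table holds raw read counts per gene made by the authors with TopHat2 2.0.11, featureCounts and the genome build dm6, per the submitters' processing notes; neither the annotation nor the strand setting is stated in any source used here. The 16 libraries were grouped by the sex and genotype in the labels. The design text calls the samples independent; each is a pool of 30 midguts, and the p-values reflect how much such pools vary.

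Of 16680 genes, 1917 had no count, and 9314 passed edgeR's filterByExpr. Counts were scaled by TMM and fitted with 1 mean per group over all 16 libraries (edgeR 4.0.16 in R 4.3.3, quasi-likelihood test). P-values were adjusted over the 9314 genes, and SE is the log2 fold change divided by the root of F. Alternatives were DESeq2 1.42.0, limma voom (limma 3.58.1), RLE, upper-quartile and total-count scaling, other filters, a fit to the 8 compared libraries and leaving out each library. The fit was tested on simulated data. Coordinates and exon lengths come from the Ensembl annotation of dm6, release 115. The 10 members and all lists were chosen with earlier results of these data known. Genes named beside the members were, per list and comparison, up to 4 called genes of lowest p, the nearest gene of each member, and Myc, w and roX1 as checks; upd1, aos and untested or uncalled genes given with counts were added after their values were seen. The 24 pairs of replicates differed by more than counting noise (24.2 to 306 for chi-square over its degrees of freedom).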

Additional observations from a re-analysis of the deposited data

Results flagged for a closer look

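In 4 of the 40 sets of 4 libraries (10 genes in 4 groups), 1 library lay far from the other 3, measured as its gap to the nearest library divided by the range of the group, with the 95% critical value of Dixon's test. Chance gives about 1 in 20 groups. For upd3 in female controls the ratio was 0.927, for upd2 in female controls 0.875 and for Socs36E in female controls 0.831, each time with replicate 4 as the highest library. For dome in females labelled Myc RNAi it was 0.837, with replicate 9 as the lowest.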

How the results depend on the processing

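Scaling to total counts raised the count of members called higher to 8 in females (vn, dome and Stat92E added) and 7 in males (Krn, Egfr and Socs36E added), took the 1 called lower in females (hop) to 0, and raised the called JAK-STAT list genes to 5 in females and 9 in males; it moved the median of those genes in females to 0.44. Under that scaling 3488 of all 9314 tested genes were called higher in females and 4460 in males, and 672 and 776 were called lower. Scaling to total counts turned the sign of Stat92E (0.34) and hop (0.30) in males, of upd2 between control sexes (0.040) and of the spi interaction (−0.021; upper quartile −0.0069), and left 0 called EGFR list genes between the sexes labelled Myc RNAi. Without a filter that last count was 0 and the calls of hop (0 lower) and Socs36E in females and of dome in males were lost; dome in males was also lost in the fit to the compared groups. That count of EGFR list genes was 4 with DESeq2 and 4 in the fit to the compared groups, where the members lower there were 2. JAK-STAT list genes called in that comparison were 1 with the 1 CPM filter and 1 with DESeq2. Of all genes there, DESeq2 called 407 higher and 386 lower of 9149, and the fit to the compared groups 270 and 225 of 8981. Between control sexes 1 member was called lower with RLE, the 1 CPM filter or DESeq2, and the EGFR list count was 8 with DESeq2, 2 with voom and 1 in the fit to the compared groups. Of all genes between control sexes, DESeq2 called 628 higher and 735 lower of 9149. The numbers were 458 and 480 of 9314 with voom, and 247 and 291 of 8832 in the fit to the compared groups. With voom the sign of upd2 turned in females (0.52), as did the interactions of upd2 (0.89) and upd3 (0.12).

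Leaving out 1 library gave 3 to 6 members higher and 0 to 1 lower in females, 3 to 6 higher in males, 0 to 2 lower between control sexes and 1 to 3 lower between the sexes labelled Myc RNAi. Female counts fell to 3 without control replicate 1, 2 or 3. Of the 9388 to 9474 genes tested in these fits, 1453 to 1901 were called higher and 1389 to 1827 lower in females. In males 1734 to 2046 were called higher. Called lower were 304 to 663 between control sexes and 108 to 365 between the sexes labelled Myc RNAi. List counts were 1 to 7 (EGFR, control sexes), 0 to 4 and 0 to 1 (EGFR and JAK-STAT, sexes labelled Myc RNAi), 2 to 4 (JAK-STAT, males) and 0 to 1 (EGFR, interaction). Signs turned among uncalled values: upd2 in females (1.08 without replicate 4, lowest −1.12), males (0.11 without replicate 6, lowest −0.92) and between control sexes (−1.91 to 0.52), Egfr between the sexes labelled Myc RNAi (−0.19 to 0.14), and the interactions of Socs36E (−0.10 to 0.92), spi (−0.030 to 0.072), upd2 (−0.81 to 1.63) and upd3 (up to 0.89, lowest −0.77). The causes were not tested.

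Of all values compared with an alternative, 2649 were classed as unchanged, 96 fell short of the threshold, 42 newly passed it, 52 moved and 27 changed sign. A fold change was classed as unchanged when it kept its direction and side of the threshold. For a count or a list median it was enough to stay within a set margin, and a place by level had to stay the same. No paired analysis was possible because the replicate numbers run from 1 to 16 and no 2 groups share a number. Depth limits upd2, upd1, ru and TotC, which rest on few reads.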
